A study of Rattus norvegicus with 8 samples.

Results

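Genes of glutathione metabolism, peroxide and superoxide defence, the thioredoxin system and their regulator NRF2 were examined in fetal rat pancreatic islets after restriction of growth in the uterus. The 36 genes were listed by name, and 35 of them had a probe set assigned to a single gene, out of 14506 genes measured. Mgst3 had none and was not analysed here. Where a gene had more than 1 such probe set, the brightest was used. The samples were 4 IUGR (intrauterine growth restriction) litters and 4 control litters. Dams of the IUGR litters had growth-restricting surgery on embryonic day 18, and dams of the control litters had a sham operation on the same day. All dams were Sprague-Dawley rats, and islets were taken on embryonic day 19. Islets of a whole litter were pooled into 1 RNA sample and 1 array, so the litter is the replicate and nothing can be said of single fetuses or of their sex. The labels do not describe the IUGR surgery further and name no sort after islet isolation.

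Glutathione is a tripeptide that cells use as their main soluble thiol. It is built by glutamate-cysteine ligase and glutathione synthetase, spent by peroxidases and transferases, and returned to its reduced form by glutathione reductase. Peroxiredoxins with thioredoxin, and catalase, remove hydrogen peroxide in parallel, after superoxide dismutases have made it from superoxide. The transcription factor NRF2, encoded by Nfe2l2, switches many of these genes on when its inhibitor KEAP1 releases it. Rodent beta cells are known for low levels of catalase and glutathione peroxidase, while hepatocytes are rich in glutathione transferases.

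Values are log2 expression as deposited, so a difference of 1 is a doubling on the array scale. Gene values spread over an interquartile range of 3.53 to 3.62 on the IUGR arrays and 3.63 on the array of sham litter 1, but 3.06 to 3.23 on the arrays of sham litters 2, 3 and 4. Array level differed in the same way. The median over single-gene probe sets was 8.83 to 8.92 on the IUGR arrays and 8.88 for sham litter 1. It was 8.55 to 8.61 for sham litters 2, 3 and 4. Islet hormone genes were bright. Ins1 lay between 13.15 and 13.51 in IUGR litters and between 13.21 and 14.01 in sham litters, near the top of the array scale. The acinar gene Ctrb1 was also near the top, at 14.02 to 14.06 in IUGR litters and 13.08 to 14.05 in sham litters. Marker means of duct, acinar and mesenchyme genes did not overlap between the groups, while those of liver genes did. All 20 liver genes were higher in IUGR, by a median of 1.91, against 55.1% of all genes. At an unadjusted limma p under 0.05, 18 of the 20 were higher in IUGR, against 15.4% of all genes. Of the 20 liver genes, 0 had a limma adjusted p under 0.05, the smallest being 0.120. The mean of 20 liver genes was 11.84, 11.05, 12.12 and 12.63 in IUGR litters 1 to 4, against 11.25, 9.28, 10.67 and 8.75 in sham litters 1 to 4. Alb itself was within 13.81 to 13.98 in IUGR litters and 11.69 to 13.92 in sham litters, the upper values being close to the highest of the arrays (14.03 to 14.24). The mean of 8 duct markers was 10.81 to 11.16 in IUGR litters and 9.67 to 10.25 in sham litters. The mean of 12 acinar markers was 11.01 to 11.98 in IUGR litters and 9.54 to 10.97 in sham litters. Mesenchyme markers (10 genes) had means of 10.33 to 11.51 in IUGR litters and 11.53 to 12.19 in sham litters. RMA values have no true zero, so no marker can be called absent. In pooled tissue RNA, more cells of a type and more RNA per cell cannot be told apart.

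Of the 35 genes, 2 rose in IUGR islets: Mgst2, a microsomal glutathione transferase, and Ggt1, the gamma-glutamyltransferase that breaks down glutathione outside the cell. Both passed an adjusted p of 0.05 in limma over all genes, where 0.248% of genes passed. Neither passed after the arrays were rescaled: quantile normalization gave 0.94 for Ggt1 and 1.15 for Mgst2 (limma adjusted p = 0.126 for each), cyclic loess 0.96 and 1.17 (limma adjusted p = 0.131 and 0.117), and median centring 0.94 and 1.12 (limma adjusted p = 0.093 for each). Another 12 genes had an unadjusted p under 0.05, and all 14 were higher in IUGR (26.1% of all genes passed that level, 15.4% higher and 10.7% lower). That split of 14 higher and 0 lower was 11 and 2 after quantile normalization, 12 and 3 with cyclic loess, and 8 and 5 with median centring. The 4 IUGR litters lay clear of the 4 sham litters in 10 genes, again all higher in IUGR. Groups without overlap were found in 15.5% of all genes, with 10% higher and 5.45% lower in IUGR. Counting signs alone, 28 of the 35 were higher in IUGR, against 55.1% of all genes, and the median difference was 0.26, against 0.04 over all genes. Under the same rescalings the sign count was lower, at 20 of 35 for quantile normalization, 21 for cyclic loess and 18 for median centring. All 35 were bright enough to stay when the dimmest 30% of genes were left out. Over the genes that stayed, the median difference was 0.14, against 0.26 for the 35. Of those with an unadjusted limma p under 0.05, 86.5% were higher in IUGR, against 58.9% with the dim genes kept. No gene of the 35 was past the threshold in the lower direction. By role, groups without overlap were found in 2 of 2 membrane transferases and 2 of 6 soluble transferases. They were found in 3 of 5 genes of glutathione synthesis, recycling and breakdown. The count was 0 of 4 for superoxide dismutases with catalase, 0 of 4 for glutathione peroxidases and 0 of 4 for thioredoxin genes.

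**Figure D1:**
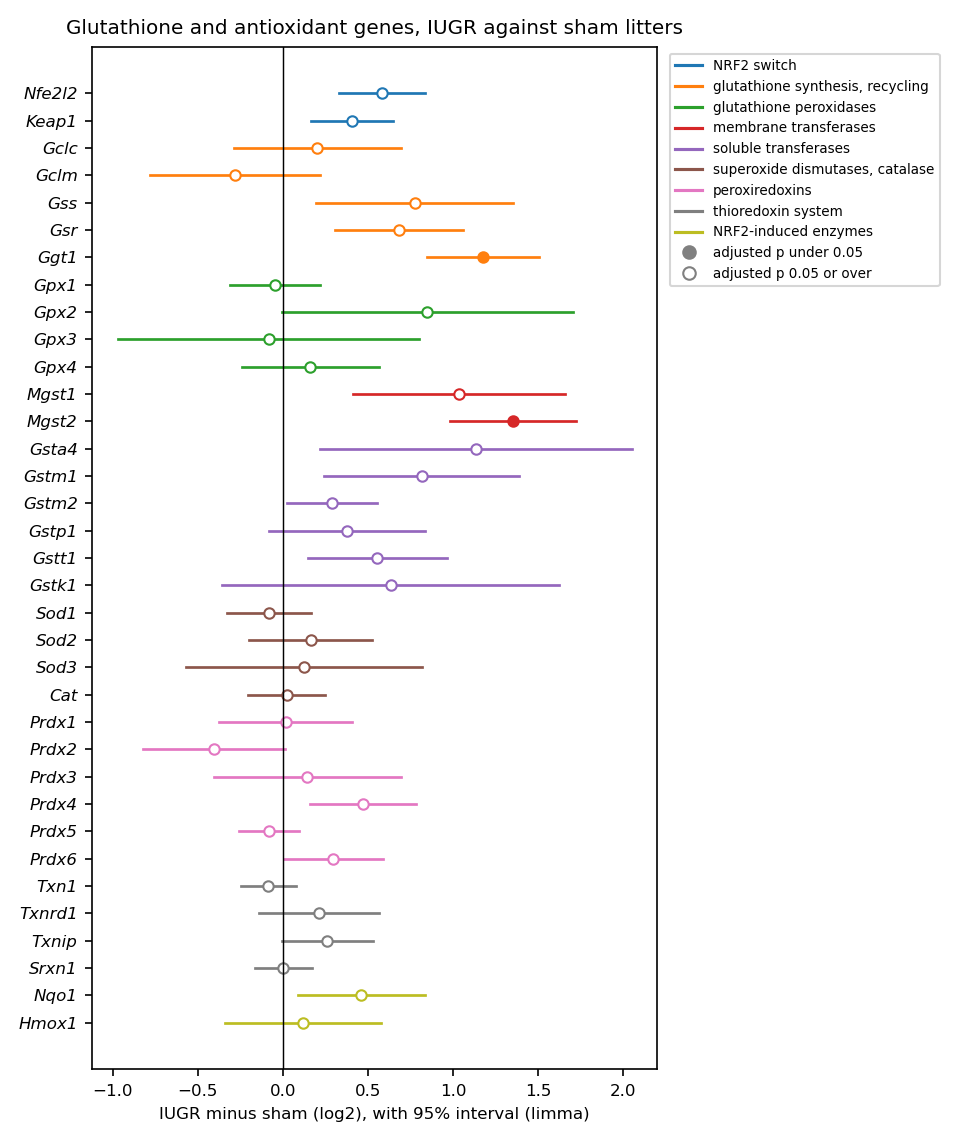
Difference of each of the 35 genes between IUGR and sham litters on the log2 scale (x axis), with its 95% interval from limma (lines), ordered and coloured by role. Filled points are the 2 genes past an adjusted p of 0.05, Ggt1 at 1.17 and Mgst2 at 1.35.

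The count of 2 also depended on which litters were used. It was 8 without sham litter 1 and 2 without sham litter 4 or without IUGR litter 2. It was 0 without sham litter 2, without sham litter 3, and without IUGR litter 1, 3 or 4. Leaving out both sham litters 1 and 4, a choice made after seeing the data, gave 8: Nfe2l2, Keap1, Gsr, Ggt1, Mgst2, Prdx6, Txnip and Nqo1. In that fit 19.3% of all genes passed, and without sham litter 1 alone 18.9% passed, so the longer lists came with a wide rise in calls.

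Microsomal glutathione transferases sit in the membrane of the endoplasmic reticulum and conjugate glutathione to lipid-like molecules. Mgst2, which also makes leukotriene C4, was at 9.48, 8.97, 9.34 and 9.54 in IUGR litters 1 to 4, against 8.02, 8.14, 8.11 and 7.64 in sham litters 1 to 4. The lowest IUGR litter was well above the highest sham litter. Mgst2 rose by 1.35 ± 0.16 (SE, n = 4 litters per group, limma adjusted p = 0.043), a fold of 2.55. Without 1 litter at a time the difference lay between 1.24 and 1.47. Mgst1, the broadly expressed relative that is abundant in liver, was at 11.81, 11.29, 11.81 and 12.50 in IUGR litters 1 to 4, against 11.23, 10.69, 10.97 and 10.38 in sham litters 1 to 4. Its groups came close without overlapping, IUGR litter 2 lying just above sham litter 1. Mgst1 differed by 1.04 ± 0.27 (SE, limma adjusted p = 0.112) and did not pass.

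In the synthesis, recycling and breakdown of glutathione, Ggt1 stood out by its even level in sham litters. Ggt1 was at 9.96, 9.36, 9.86 and 9.98 in IUGR litters 1 to 4, against 8.64, 8.56, 8.71 and 8.55 in sham litters 1 to 4. The sham litters lay within a narrow band, and IUGR litter 2 was the lowest of its group while still far above that band. Ggt1 rose by 1.17 ± 0.14 (SE, n = 4 per group, limma adjusted p = 0.043), a fold of 2.26, and lay between 1.11 and 1.32 without 1 litter at a time. Its calls and those of Mgst2 were lost in the same 5 fits that left out 1 litter. Of the 20 probe sets numbered nearest to that of Ggt1, only 2 belong to genes of its chromosome 20, so its place on the genome was not settled by its number.

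Gss encodes glutathione synthetase, the second enzyme of glutathione synthesis. It was at 10.58, 10.46, 10.74 and 11.10 in IUGR litters 1 to 4, against 10.33, 10.06, 10.17 and 9.22 in sham litters 1 to 4. Sham litter 4 was far below the others, and without it the difference was 0.53 rather than 0.78 ± 0.25 (SE, limma adjusted p = 0.135). Gsr encodes glutathione reductase, which restores the reduced form with NADPH. It was at 11.59, 11.49, 11.26 and 11.48 in IUGR litters 1 to 4, against 10.79, 11.11, 10.85 and 10.33 in sham litters 1 to 4, and differed by 0.68 ± 0.16 (SE, limma adjusted p = 0.096). The groups of both genes did not overlap, yet neither passed. Gclc and Gclm, the catalytic and modifier subunits of the rate-limiting ligase, had differences of opposite sign, and neither passed. Gclc differed by 0.20 ± 0.21 (SE, interval -0.29 to 0.69) and Gclm by -0.28 ± 0.22 (SE, interval -0.78 to 0.22). Both had overlapping groups, and IUGR litter 1 was the lowest IUGR litter for each, at 10.31 for Gclc and 10.78 for Gclm. Without sham litter 4, Gclc differed by 0.04 and Gclm by -0.45.

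Nfe2l2 and Keap1, the NRF2 switch, both lay higher in every IUGR litter than in any sham litter. Nfe2l2 was at 11.89, 11.90, 11.86 and 12.05 in IUGR litters 1 to 4, against 11.51, 11.28, 11.48 and 11.10 in sham litters 1 to 4. The IUGR values were close together and the sham values more spread. The difference was 0.58 ± 0.11 (SE, limma adjusted p = 0.072), and it lay between 0.50 and 0.64 without 1 litter at a time. Keap1, the adaptor that hands NRF2 to the proteasome, was at 9.27, 9.43, 9.50 and 9.41 in IUGR litters 1 to 4, against 9.21, 8.80, 8.98 and 8.99 in sham litters 1 to 4. IUGR litter 1 lay just above sham litter 1, and the difference was 0.41 ± 0.11 (SE, limma adjusted p = 0.109). Neither gene passed with the 8 arrays weighted equally. Both passed with array weights (limma adjusted p = 0.0020 for Nfe2l2 and 0.0021 for Keap1), where 43.8% of all genes passed. Both also passed without sham litter 1, Nfe2l2 at 0.64 and Keap1 at 0.48, where 18.9% of all genes passed.

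Genes that NRF2 is known to induce did not share one pattern. Nqo1, a quinone reductase, was at 8.70, 9.04, 9.06 and 8.69 in IUGR litters 1 to 4, against 8.83, 8.32, 8.22 and 8.28 in sham litters 1 to 4. Sham litter 1 lay above 2 of the IUGR litters, so the groups overlapped. Nqo1 differed by 0.46 ± 0.16 (SE, limma adjusted p = 0.142), and by 0.60 without sham litter 1, where it passed. Hmox1, the haem oxygenase that macrophages express strongly, differed by 0.12 ± 0.20 (SE). The mean of 10 macrophage markers was 9.47 to 10.62 in IUGR litters and 10.33 to 11.11 in sham litters, and its part in the Hmox1 values was not tested. Srxn1, which repairs overoxidised peroxiredoxins, differed by 0.00 ± 0.07 (SE, interval -0.16 to 0.17). Txnrd1, thioredoxin reductase, differed by 0.21 ± 0.15 (SE), with sham litter 4 lowest at 9.06. These 3 had overlapping groups, and Gclm, another known NRF2 target, lay lower in IUGR as given above.

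Soluble glutathione transferases were higher in IUGR in 6 of 6 genes, by 0.29 to 1.13 as deposited, and 0 of the 6 passed. All 6 were also higher after quantile normalization, cyclic loess and centring on the median. With the liver mean added to the fit Gstk1 was at -0.38, and with Alb added at -0.09. The others stayed higher in IUGR in both of these fits. Gsta4, which conjugates the lipid peroxidation product hydroxynonenal, was at 11.38, 10.81, 10.91 and 11.58 in IUGR litters 1 to 4, against 10.57, 10.45, 10.36 and 8.78 in sham litters 1 to 4. Sham litter 4 was far below the rest. The difference was 1.13 ± 0.40 (SE, limma adjusted p = 0.143) and 0.71 without that litter. A further Gsta4 probe set differed by 0.70 ± 0.24 (SE). Its neighbours by probe set number belong to genes of chromosome 6, while Gsta4 lies on chromosome 8.

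Gstt1, a transferase that acts on small halogenated compounds, was at 9.96, 10.09, 9.99 and 10.34 in IUGR litters 1 to 4, against 9.77, 9.57, 9.78 and 9.04 in sham litters 1 to 4. It differed by 0.56 ± 0.18 (SE, limma adjusted p = 0.134), with no overlap, and by 0.39 without sham litter 4. Gstm1, a mu-class transferase abundant in liver, was at 12.27, 11.74, 12.71 and 12.85 in IUGR litters 1 to 4, against 11.90, 11.37, 11.69 and 11.34 in sham litters 1 to 4. Here IUGR litter 2 lay below sham litter 1, and the difference was 0.82 ± 0.25 (SE, limma adjusted p = 0.128). Gstm2, Gstp1 and Gstk1 differed by 0.29, 0.38 and 0.63, each with overlapping groups, and Gstp1 by 0.19 without sham litter 4. Gstk1, a transferase of mitochondria and peroxisomes, was at 9.54 in sham litter 4 and 11.34 to 11.58 in the other sham litters, and its difference was 0.16 without sham litter 4. Genes of the Gstm and Gsta families resemble each other in sequence, and cross-hybridisation between them was not tested.

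The glutathione peroxidases did not move as a group, 2 of 4 being higher in IUGR. Gpx1, the main cytosolic peroxidase, differed by -0.04 ± 0.12 (SE, interval -0.31 to 0.22), and Gpx4, which protects membranes from lipid peroxides, by 0.16 ± 0.18 (SE). Gpx2, known from gut epithelium, was at 10.38, 9.55, 9.37 and 8.93 in IUGR litters 1 to 4, against 8.39, 9.61, 8.37 and 8.45 in sham litters 1 to 4. Sham litter 2 stood apart from the other 3, and the difference of 0.85 ± 0.37 (SE, limma adjusted p = 0.193) was 1.15 without it. Gpx3, a secreted peroxidase, was at 10.18, 9.37, 9.32 and 9.67 in IUGR litters 1 to 4, against 9.49, 9.29, 9.20 and 10.90 in sham litters 1 to 4. Its difference of -0.08 ± 0.39 (SE) was 0.31 without sham litter 4, the highest litter.

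Superoxide dismutases and catalase showed small differences with intervals that include 0. Sod1 of the cytosol differed by -0.08 ± 0.11, Sod2 of mitochondria by 0.16 ± 0.16, the secreted Sod3 by 0.12 ± 0.30 and Cat, the peroxisomal catalase, by 0.02 ± 0.10 (SE, n = 4 per group). The 95% interval for Cat ran from -0.20 to 0.25. Sod3 varied most of the 4, with an SD of 0.26 over IUGR litters and 0.64 over sham litters, where litter 4 was highest at 10.52.

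Of the peroxiredoxins, only Prdx4, the form of the endoplasmic reticulum, had groups without overlap. Prdx4 was at 9.84, 9.93, 9.75 and 10.09 in IUGR litters 1 to 4, against 9.56, 9.48, 9.60 and 9.08 in sham litters 1 to 4. It differed by 0.47 ± 0.14 (SE, limma adjusted p = 0.124), or 0.35 without sham litter 4. Prdx6, which also has phospholipase activity, was at 12.02, 11.98, 11.93 and 12.07 in IUGR litters 1 to 4, against 11.98, 11.77, 11.68 and 11.38 in sham litters 1 to 4, and differed by 0.30 ± 0.13 (SE, limma adjusted p = 0.185). Sham litter 1 lay among the IUGR litters for this gene. Prdx2, abundant in red cells, had the lowest difference of the 35 genes, -0.40 ± 0.18 (SE, limma adjusted p = 0.203). It was at 11.91, 12.36, 12.40 and 11.83 in IUGR litters 1 to 4, against 12.63, 12.77, 12.57 and 12.15 in sham litters 1 to 4. The mean of 7 erythroid markers was lowest in the same 2 IUGR litters: 11.20, 12.36, 12.40 and 11.64 in IUGR litters 1 to 4, against 12.73, 12.80, 12.59 and 12.13 in sham litters 1 to 4. The part of red cells in the Prdx2 values was not tested. Prdx3 of mitochondria, Prdx5 and Prdx1 differed by 0.14, -0.08 and 0.02. Without sham litter 4 the signs of Prdx3 and Prdx1 turned, to -0.12 and -0.16. The brightest Prdx1 probe set has neighbours by number on chromosome 2, while Prdx1 lies on chromosome 5. The other one, with neighbours on chromosome 5, differed by 0.03 ± 0.18 (SE).

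Txn1, which encodes thioredoxin, differed by -0.08 ± 0.07 (SE, interval -0.25 to 0.08) and lay within a narrow band, 13.51 to 13.61 in IUGR litters and 13.61 to 13.70 in sham litters. These values are near the top of the array scale. Txnip, the thioredoxin inhibitor that glucose induces in beta cells, was at 12.59, 12.56, 12.68 and 12.70 in IUGR litters 1 to 4, against 12.48, 12.19, 12.19 and 12.63 in sham litters 1 to 4. Sham litter 4 lay among the IUGR litters, and the difference of 0.26 ± 0.12 (SE, limma adjusted p = 0.200) was 0.35 without it.

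**Figure D2:**
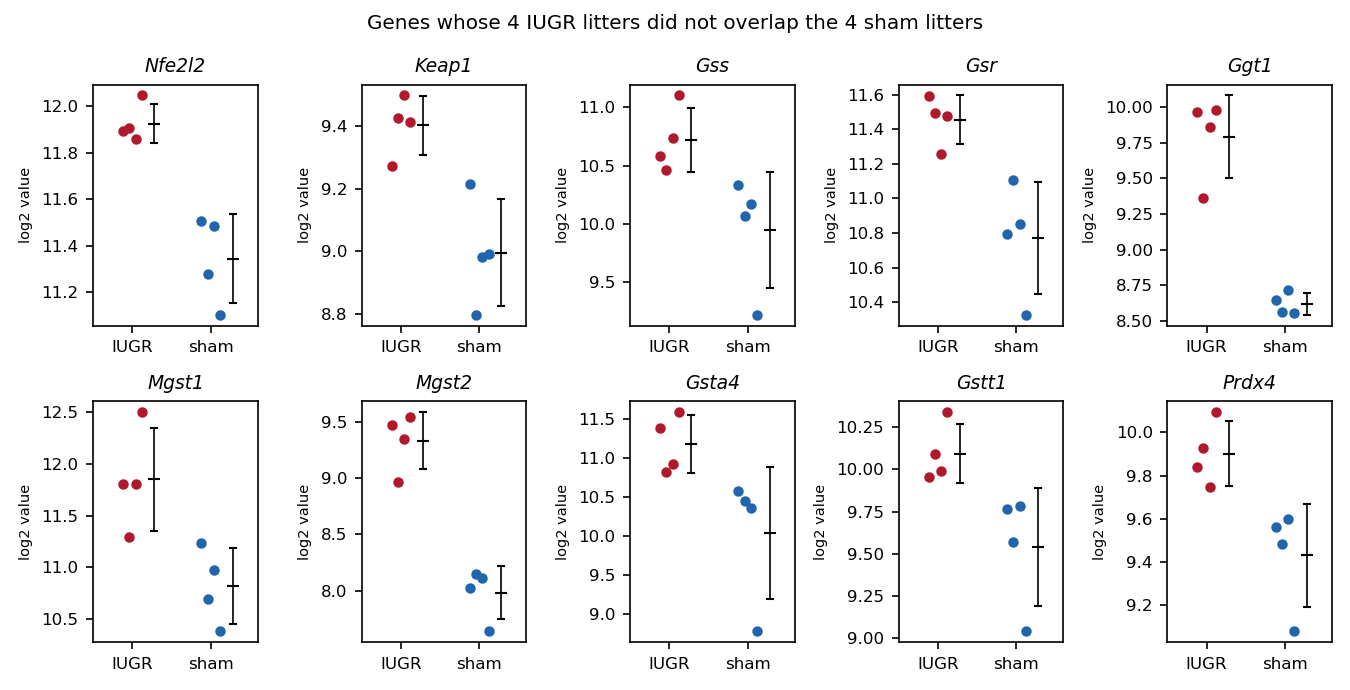
Log2 value of the 10 genes whose groups did not overlap, with a point for each IUGR litter (left in each panel) and each sham litter (right), and the group mean with its SD beside the points. Ggt1 and Mgst2 have the widest gap between groups, and sham litter 4 is the lowest litter in most panels, as in Gss at 9.22 and Gsta4 at 8.78.

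Sham litter 4 set many of the low values. It was the lowest of the 8 litters in 21 of 35 genes (30.8% of all genes), and IUGR litter 4 was the highest in 15 of 35 (20.6% of all genes). Sham litter 4 also had the lowest liver mean, 8.75, the lowest acinar mean, 9.54, and the highest mean of 7 beta cell markers, 12.26, against 10.97 to 11.39 in IUGR litters and 10.58 to 10.97 in the other sham litters. Without it the signs of Gpx3, Gpx4, Cat, Prdx1, Prdx3 and Hmox1 turned, to 0.31 for Gpx3 and to between -0.16 and -0.0017 for the others. Txnrd1 then differed by 0.072 and Sod3 by 0.41, while Sod3 was at -0.10 without sham litter 2. Without sham litter 4, 24 of 35 genes were higher in IUGR, and the median difference was 0.26.

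**Figure D3:**
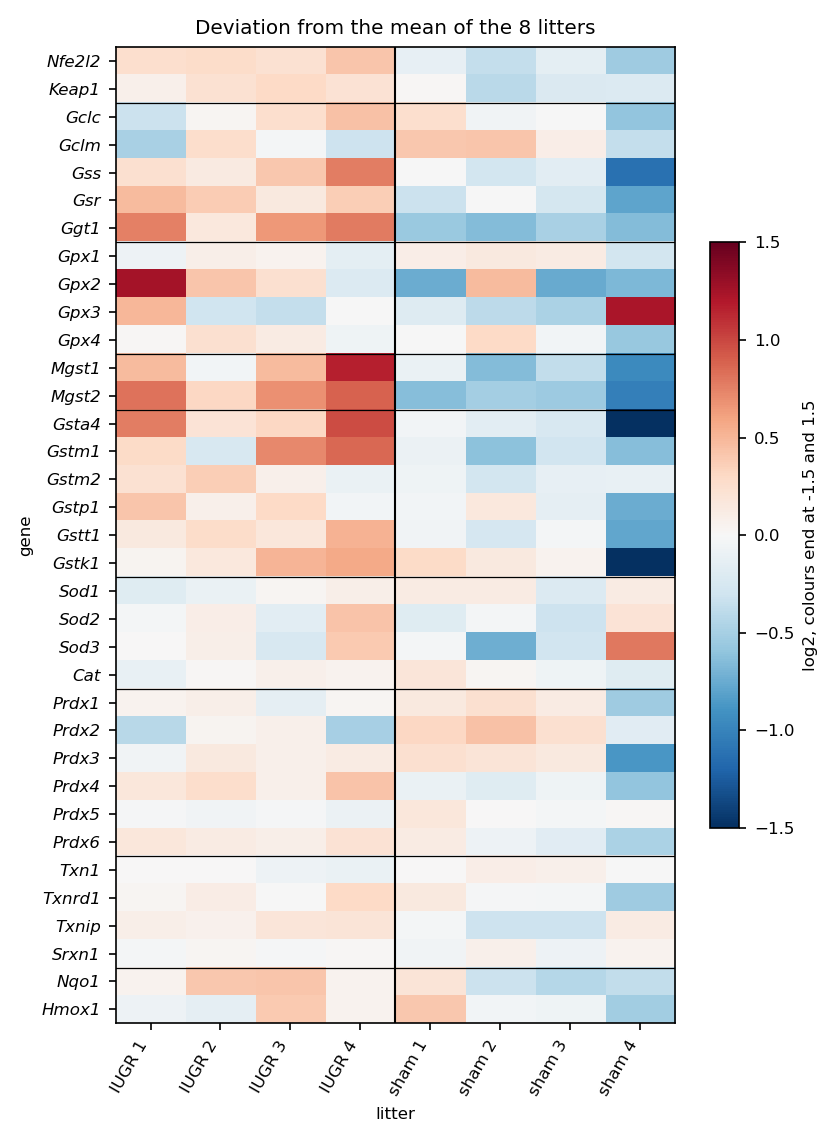
Deviation of each gene (rows, grouped by role) from its own mean over the 8 litters, in log2, with IUGR litters left of the line and sham litters right of it. Transferase and glutathione synthesis genes are mostly red in IUGR litters, and sham litter 4 is the lowest litter in 21 of 35 genes.

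Start regions of the genes were read from RefSeq (rat build GRCr8) and searched for the core of the antioxidant response element, the DNA motif that NRF2 binds. The motif was TGACNNNGC on either strand, in the 250 bases before and 50 after each start. Of the 35 genes, 28 had such a window, and 9 of the 28 held a match. Counted by window, 9 of their 31 windows (29.0%) held one, against 12.1% of all 33469 windows. The 9 genes were Sod2, Gstp1, Prdx5, Gclm, Nfe2l2, Prdx1, Gpx2, Txnrd1 and Prdx4. Windows for 4 genes follow, with matches in capitals: Ggt1, the only gene past the threshold that had a window, Nfe2l2 and Gstp1, which differed by 0.58 and 0.38, and Gclm, which differed by -0.28.
Ggt1, chr20:13095055-13095354, minus strand: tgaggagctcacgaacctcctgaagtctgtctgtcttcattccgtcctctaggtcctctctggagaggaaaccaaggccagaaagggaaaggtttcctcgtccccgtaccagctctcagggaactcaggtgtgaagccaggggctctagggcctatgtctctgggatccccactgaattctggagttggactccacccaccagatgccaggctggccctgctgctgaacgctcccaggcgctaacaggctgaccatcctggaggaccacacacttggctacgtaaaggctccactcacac
Nfe2l2, chr3:81028950-81029249, minus strand: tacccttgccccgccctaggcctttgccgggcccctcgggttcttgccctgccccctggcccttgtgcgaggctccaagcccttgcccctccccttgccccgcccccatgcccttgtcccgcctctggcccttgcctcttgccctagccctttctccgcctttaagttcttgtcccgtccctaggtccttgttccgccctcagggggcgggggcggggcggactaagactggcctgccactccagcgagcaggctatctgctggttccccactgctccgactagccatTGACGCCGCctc
Gstp1, chr1:210769656-210769955, minus strand: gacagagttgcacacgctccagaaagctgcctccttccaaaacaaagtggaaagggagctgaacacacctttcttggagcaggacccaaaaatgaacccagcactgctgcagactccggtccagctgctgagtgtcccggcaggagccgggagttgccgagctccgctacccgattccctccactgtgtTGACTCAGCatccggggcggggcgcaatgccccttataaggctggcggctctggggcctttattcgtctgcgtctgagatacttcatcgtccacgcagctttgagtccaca
Gclm, chr2:213031885-213032184, plus strand: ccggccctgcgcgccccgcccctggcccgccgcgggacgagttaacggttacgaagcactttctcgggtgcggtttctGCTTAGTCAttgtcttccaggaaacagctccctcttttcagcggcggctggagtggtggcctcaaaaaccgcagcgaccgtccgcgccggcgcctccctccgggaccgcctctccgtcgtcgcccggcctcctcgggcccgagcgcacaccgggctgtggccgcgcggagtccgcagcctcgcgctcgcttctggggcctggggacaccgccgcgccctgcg
The Ggt1 window held no match, the Nfe2l2 match began 39 bases after the start, and those of Gstp1 and Gclm lay before it. Gsr, Mgst2, Gstt1, Sod3, Prdx6, Txnip and Hmox1 had no window. Among the genes without overlap between groups, Nfe2l2 and Prdx4 held a match. Of the 4 starts printed, those of Ggt1, Nfe2l2 and Gstp1 lie inside the annotated span of the gene, as do several of the others, so starts further upstream were not searched. A match is a run of letters and not a measured binding site.

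Further genes of the same chemistry were listed, and 108 of 119 were measured. Of these 108, 0 passed over all genes, 27 had an unadjusted p under 0.05 (24 higher and 3 lower in IUGR) and 25 had no overlap, 22 of them higher. The 27 are 25% of the list, close to the 26.1% of all genes, and the 25 are 23.1%, against 15.5% of all genes. The median difference was 0.13, with 77 of 108 (71.3%) higher, against 55.1% of all genes. Other glutathione transferases and related enzymes differed most, 11 of 12 being higher with a median of 0.59. Ptges, a prostaglandin synthase of the microsomal transferase family, differed by 1.21 ± 0.23 (SE, limma adjusted p = 0.072), and Gstm7 by 1.04 ± 0.20 (SE, limma adjusted p = 0.074). Ptges was at 10.14, 9.37, 10.15 and 9.97 in IUGR litters 1 to 4, against 8.68, 8.92, 9.01 and 8.17 in sham litters 1 to 4, with no overlap.

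Genes that move or break down glutathione and its parts had 18 of 21 members higher, by a median of 0.15. Ggct, which acts on gamma-glutamyl peptides downstream of Ggt1, was at 9.70, 9.51, 9.50 and 10.18 in IUGR litters 1 to 4, against 9.04, 8.67, 8.72 and 8.73 in sham litters 1 to 4. It differed by 0.93 ± 0.17 (SE, limma adjusted p = 0.066), the smallest adjusted p of the 108. Dpep1, a dipeptidase that splits the cysteinylglycine left by Ggt1, differed by 1.59 ± 0.31 (SE, limma adjusted p = 0.074). Both had groups without overlap and neither passed.

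In the other 5 groups the leading genes also missed the threshold. Partners of NRF2 had 6 of 9 higher, with Mafg at -0.21 and Cul3 at 0.16. NADPH-supplying enzymes had 6 of 7 higher, with Nnt at 0.26 and Tkt at 0.16. Thiol repair genes had 10 of 18 higher, with Gpx7 at -0.29 and Msra at 0.64. Quinone, epoxide, haem and iron handling genes had 10 of 19 higher, with the epoxide hydrolases Ephx2 at 1.47 and Ephx1 at 1.04. Genes of metal binding, selenium use and oxidant production had 16 of 22 higher, with Pon3, a lactonase, at 1.69 and Selenos at 0.47.

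Several of the genes followed the level of liver transcripts from litter to litter. The order of the 8 litters by Gstm1 was the same as their order by the mean of the 20 liver markers (Spearman rho = 1.00, exact permutation p = 4.96e-05, the smallest the pairings allow, adjusted p = 0.015 over all genes), with Pearson r = 0.93 (exact permutation p = 0.0016, adjusted p = 0.044). For Gss, r was 0.94 (exact permutation p = 4.96e-05, adjusted p = 0.016) and rho 0.98 (exact permutation p = 0.00040, adjusted p = 0.039). For Mgst1, r was 0.95 (exact permutation p = 0.00020, adjusted p = 0.025) and rho 0.95 (exact permutation p = 0.0011, adjusted p = 0.063). Without sham litters 2 and 4, the farthest from the median liver level, r was 0.98 for Gstm1, 0.96 for Gss and 0.97 for Mgst1. Nfe2l2, Gsta4 and Gstt1 also passed by r, at 0.93, 0.87 and 0.91 (exact permutation p = 0.00087, 0.00099 and 0.00092, adjusted p = 0.038 for each). Their rho was 0.83, 0.93 and 0.81 (exact permutation p = 0.015, 0.0022 and 0.022, adjusted p = 0.153, 0.077 and 0.176). Without the same litters r was 0.76 for Nfe2l2, 0.87 for Gsta4 and 0.73 for Gstt1. In all, 6 of 35 genes passed by r and 2 by rho, against 5.14% and 1.03% of all genes, and 14 had an exact permutation p under 0.05 for a positive r, against 20% of all genes.

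These correlations run over both groups, and liver level and group go together. Groups of 4 litters are too few for a correlation of their own, so the slope on the liver mean was estimated within groups, with group as a term in limma. The slope was positive in 26 of 35 genes, against 55% of all genes. No gene of the 35 had a slope past the threshold, and 0.241% of all genes did. Slopes of 10 of the 35 genes had an unadjusted p under 0.05 and all 10 were positive, where 6.61% of all genes had a positive slope at that level. That count of 10 was 5 without sham litter 1, 5 without sham litter 4, and 6 without sham litter 3 or IUGR litter 4. After quantile normalization it was 6, with 19 of 35 slopes positive. The steepest against their SE were Mgst1 at 0.41 ± 0.09, Gss at 0.36 ± 0.09 and Gstm1 at 0.35 ± 0.10 per log2 unit of the liver mean (SE, limma adjusted p = 0.431 to 0.508). With the liver mean in the fit, the group difference was 0.25 ± 0.23 for Mgst1, 0.08 ± 0.23 for Gss, 0.15 ± 0.24 for Gstm1 and 0.17 ± 0.45 for Gsta4 (SE).

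For Ggt1 and Mgst2 the difference in that fit was larger. Ggt1 differed by 0.92 ± 0.20 (SE, limma adjusted p = 0.618) and Mgst2 by 1.03 ± 0.21 (SE, limma adjusted p = 0.613), with 0 of 14506 genes past the threshold and 676 at an unadjusted p under 0.05. With Alb in place of the liver mean they differed by 1.11 ± 0.17 and 1.18 ± 0.17 (SE). IUGR litter 2 and sham litter 1 had nearly equal liver means, 11.05 and 11.25, and were compared gene by gene after this was seen. Ggt1 was 0.72 higher in IUGR litter 2 than in sham litter 1, Mgst2 0.95, Gsr 0.70 and Gpx2 1.15, and these were the 4 of 35 genes that differed by over 0.5 in that direction (5.31% of all genes). Mgst1, Gss and Gstm1 differed by 0.06, 0.13 and -0.15 between the same litters. The groups of Ggt1, Mgst2, Gsr, Mgst1 and Gss did not overlap, so any such pair had to be higher in the IUGR litter. For these genes only the size of the difference was free to vary. The comparison is of a single pair of litters with no replicate, and the pair was not alike in other markers. The duct mean was 10.90 in IUGR litter 2 and 9.67 in sham litter 1, and the acinar mean 11.28 and 10.33. The part of duct or acinar cells in the Ggt1 and Mgst2 values was not tested.

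**Figure D4:**
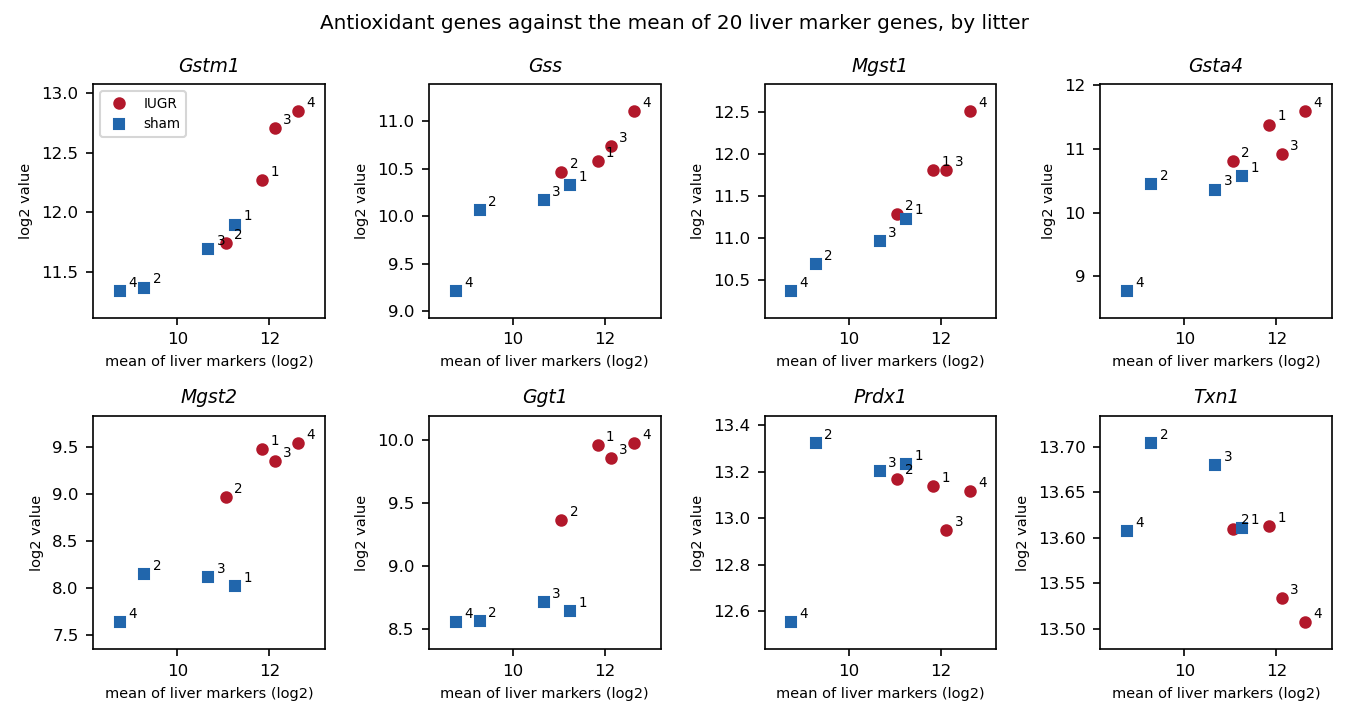
Log2 value of 8 of the genes (y axes) against the mean log2 value of 20 liver markers (x axes), with a numbered point per litter, circles for IUGR and squares for sham. Gstm1, Gss and Mgst1 follow the liver mean across both groups (r of 0.93, 0.94 and 0.95). Ggt1 and Mgst2 also rise with it (r of 0.84 and 0.85). In IUGR litter 2 they are higher than in sham litter 1, at nearly equal liver means of 11.05 and 11.25. For both genes every IUGR litter is above every sham litter, so the direction in this pair was given beforehand.

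Some genes ran the other way or did not follow the liver mean. Txn1 had r = -0.69 (exact permutation p = 0.053, adjusted p = 0.151) and rho = -0.55 (exact permutation p = 0.171, adjusted p = 0.367), and r was -0.92 without sham litters 2 and 4. Prdx1 had r = 0.32 (exact permutation p = 0.457, adjusted p = 0.610) over 8 litters but -0.64 without sham litters 2 and 4, so its sign rested on those litters. Gpx1 likewise had 0.08 (exact permutation p = 0.868, adjusted p = 0.918) and -0.85. Catalase, an abundant liver enzyme, had r = 0.48 (exact permutation p = 0.229, adjusted p = 0.383).

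Genes whose values over the 8 arrays were most like those of the 2 called genes were listed by Pearson correlation, as a description. For Ggt1 they were Wwox (0.985), Gnmt (0.985), Pex6 (0.985), Ciao3 (0.983) and Car12 (0.983). For Mgst2 they were Chchd10 (0.990), Tcp11 (0.987), Pex6 (0.987), Macrod1 (0.984) and Plpp2 (0.984). Pex6, a peroxisome assembly factor, was on both lists and differed by 0.53 between IUGR and sham litters (limma adjusted p = 0.052). Gnmt, which uses up S-adenosylmethionine, differed by 2.12 (limma adjusted p = 0.043) and Car12 by 2.39 (limma adjusted p = 0.048). Likeness to a gene called for its group difference favours genes that differ between the groups, so these differences are not a separate result.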

How the data were processed

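RNA of islets pooled by litter was measured on 1 array per litter, 4 IUGR and 4 sham. The deposited values are log2 expression per probe set, made by the authors with RMA, per the submitters' processing notes; the sources used here name no version or probe filter. Of 29214 probe sets, 15310 had 1 gene in the platform annotation, 323 several and 13581 none. Symbols were updated by gene identifier to RefSeq (GRCr8), and 15279 matched. The highest-mean probe set stood for a gene, giving 14506 genes. The values were tested as deposited with limma 3.58.1 in R 4.3.3 (lmFit, eBayes, two-sided, 8.21 total degrees of freedom), with Benjamini-Hochberg adjustment over all genes and a threshold of 0.05. The script was tested on simulated data. Correlations used exact permutation over 40320 pairings, two-sided, adjusted over all genes instead of over the members, as had been planned. The members and lists were chosen with earlier results of these data known. All members were named, and of the further list the 2 genes with the smallest p in each group. P-values measure the spread between litters, and the number of arrays limits precision. Alternatives were other normalizations, a filter on dim genes, other variance priors, weights, probe set rules, a replicate block, liver covariates and litters left out. Figures were drawn with matplotlib 3.10.9.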

Additional observations from a re-analysis of the deposited data

Results flagged for a closer look

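A litter far from the other 3 of its group was looked for in each gene and group. Of 70 groups of 4, 9 had such a litter by Dixon's criterion at the 95% level. All 9 were in the sham group and 0 in the IUGR group, and 6 were sham litter 4. Chance gives about 1 in 20 for independent groups, but the 70 groups share the same 8 arrays. The share over all genes was not counted. Sham litter 4 was lowest for Gpx1 (12.27, others 12.64 to 12.68), Gsta4 (8.78, others 10.36 to 10.57), Gstk1 (9.54, others 11.34 to 11.58), Prdx1 (12.55, others 13.20 to 13.32) and Prdx3 (11.61, others 12.62 to 12.72). It was highest for Gpx3 (10.90, others 9.20 to 9.49). Sham litter 2 was highest for Gpx2 (9.61, others 8.37 to 8.45), sham litter 3 lowest for Sod1 (11.78, others 12.10 to 12.11) and sham litter 1 highest for Nqo1 (8.83, others 8.22 to 8.32).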

How the results depend on the processing

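Of the 35 genes, 22 kept their sign under all 21 alternatives, 17 higher and 5 lower in IUGR, and Ggt1 and Mgst2 were among them, at 0.92 or more and 1.03 or more. The count of members past the threshold was 2 of 35, with 36 genes in all. It was 0 after quantile normalization (0 genes in all, 13 members and 3305 genes at an unadjusted p under 0.05), cyclic loess (0 genes, 15 and 3290 unadjusted) and median centring (1 gene, 13 and 5133 unadjusted). Median centring moved the median of all genes to -0.19 from 0.04, leaving 18 of 35 members higher and a member median of 0.029. At an unadjusted p under 0.05, 14 members were higher and 0 lower as deposited, against 11 and 2 after quantile normalization, 12 and 3 after cyclic loess and 8 and 5 after median centring. Over all genes the higher share at that level was 58.9% as deposited, against 45.9% after quantile normalization, 47.6% after cyclic loess, 13.4% after median centring and 86.5% without the dimmest 30% of genes (59 genes past the threshold). Array weights gave 18 members, 42 of the further list and 6358 genes in all, with weights of 7.82 for sham litter 3 and 0.20 for sham litter 4. The liver mean as a covariate gave 0 members and 0 genes, Alb as a covariate 0 and 1, and the 5 arrays of wider range 0 and 0 (4 members and 1370 genes unadjusted). The causes of these changes were not tested. Leaving out 1 litter, members past the threshold ran from 0 to 8, genes in all from 0 to 2738 and the further list from 0 to 18. Without sham litters 1 and 4, chosen after seeing the data, they were 8, 2795 and 9. The labels do not say whether the replicate numbers pair the litters. After removal of the group means, same-numbered litters had correlations of -0.43 to 0.10, and 0 of 4 IUGR litters correlated best with their own number. Such correlations cannot settle whether litters were handled in pairs. With the replicate numbers as a block, 0 members and 0 genes passed (12 members and 2715 genes unadjusted). Without a group term, 10 members had a slope on the liver mean past the threshold, where 1704 of all genes had. Over all genes, 35 slopes passed, against 9 without sham litter 1 and 5 with Alb alone. With 4 litters per group, differences inside the printed intervals could not be told from 0.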
